A study of Homo sapiens with 80 samples.

Results

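Store-operated calcium entry and its transcription factor NFAT were followed through 10 genes by RNA-Seq of the human leukemic T lymphocyte line Jurkat (clone E6-1). The genes were chosen by name: the channel genes ORAI1, ORAI2 and ORAI3, the sensor genes STIM1 and STIM2, the receptor genes ITPR1, ITPR2 and ITPR3, and the NFAT genes NFATC2 and NFATC3. All 10 were found by their Ensembl identifiers among the 60663 genes of the count table, and all 10 passed the filter on low counts in every comparison. In the 9 g experiment, cells in 1 mL pipettes were spun in a pipette centrifuge. The groups hypg20s and hypg75s were exposed to 9 g for 20 and 75 s, and the groups hypg3, hypg5, hypg7, hypg9, hypg15 and hypg60 for as many minutes as their names say. Control cells stayed at 1 g throughout, in Ctrl for 15 min and in Ctrl60 for 60 min. The column headers of Ctrl60, but not those of the other groups, name an addition of HEPES, a buffer, so in hypg60 against Ctrl60 such an addition and 9 g may not be told apart. Shorter exposures were completed with time at 1 g, so that all groups but Ctrl60 and hypg60 had the same total incubation. In the second experiment, a 5 min spin at 300 g was followed by fixation 1 min (wait1min), 4 min (wait4min) or 15 min (wait15min) after the stop. Other cells were held in a rotating water bath at 42 °C for 5 min (heat), and this experiment had a control of its own (A-Ctrl). The A-Ctrl cells were fixed directly, without matched time or handling. In this experiment 300 g or heat therefore cannot be told apart from the time and handling that came with it. The 9 g groups comprised 6 libraries each and the groups of the second experiment 4 each. Library 75 of hypg15 was left out, which leaves 79 libraries and 5 in hypg15. All libraries come from the 1 clonal line, and nothing in the labels says that replicates were separate cultures, so p-values measure the spread between these samples, which may be technical.

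When a T cell receptor is engaged, phospholipase C makes inositol trisphosphate (IP3), which opens IP3 receptors in the membrane of the endoplasmic reticulum (ER) and lets stored calcium out. STIM proteins sense the falling store, move to junctions with the plasma membrane and open ORAI channels there, and this store-operated entry is the main calcium influx of T cells. The calcium activates calcineurin, a phosphatase that frees NFAT to enter the nucleus, where it drives cytokine genes. The libraries measure RNA only, so channel opening, calcium levels and the location of NFAT are outside these data.

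ORAI1, the pore subunit of the calcium release-activated channel, lies on the plus strand at chr12:121626550-121642677 (GRCh38, as all gene positions here) and ORAI2, a second pore subunit, on the plus strand at chr7:102433106-102456825. ORAI3, the third pore subunit, lies on the plus strand at chr16:30949068-30956461. STIM1, the principal ER calcium sensor, lies on the plus strand at chr11:3854527-4093210, and STIM2, a sensor that responds to smaller losses of the store, on the plus strand at chr4:26857601-27025381. The IP3 receptor genes are ITPR1 on the plus strand at chr3:4493345-4847506, ITPR2 on the minus strand at chr12:26335352-26833194 and ITPR3 on the plus strand at chr6:33620365-33696574. NFATC2, also called NFAT1, lies on the minus strand at chr20:51386957-51562831 and NFATC3, also called NFAT4, on the plus strand at chr16:68084751-68229259. Counts were taken over all exons of a gene and by strand. Genes that overlap on the same strand make the counts less certain for STIM1, whose locus holds ENSG00000229368 at a mean of 7.62 CPM (the count relative to the library's total after TMM scaling, which adjusts for library composition), and for NFATC3, whose locus holds ENSG00000262514 at 1.06 CPM. The other 8 genes had no overlapping gene of the same strand above 0.108 CPM.

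The genes differed in base composition. The GC content of the longest annotated transcript was 61.7% in ORAI1, 59.4% in ORAI3, 59.1% in ITPR3, 57.3% in ORAI2 and 56.2% in STIM1. It was 50.8% in NFATC2, 47.1% in ITPR1, 45.8% in NFATC3, 44.0% in STIM2 and 42.1% in ITPR2. Among the genes tested, this places ORAI1 at the 90.2nd percentile of GC content and ITPR2 at the 22.7th. The exon length ran from 2262 bases in ORAI1 to 32120 bases in ITPR1.

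RefSeq promoter windows (250 bases before to 50 after a start site, GRCh38.p14) were at hand for 8 of the 10 genes, 12 windows in all; ORAI1 and ITPR2 had none. The stretches before the start that overlap no exon of the gene itself are shown for ORAI2 and STIM1, whose counts fell after 300 g, for STIM2, whose counts rose, and for NFATC2, itself an NFAT factor. Capitals mark the NFAT core motif GGAAA, searched on both strands, so that it also appears as TTTCC. The stretches lie at chr7:102433356-102433529 (ORAI2, plus strand), chr11:3855414-3855663 (STIM1, plus strand), chr4:26860591-26860690 (STIM2, plus strand) and chr20:51562840-51563089 (NFATC2, minus strand), each written 5′ to 3′ along its gene.
ORAI2: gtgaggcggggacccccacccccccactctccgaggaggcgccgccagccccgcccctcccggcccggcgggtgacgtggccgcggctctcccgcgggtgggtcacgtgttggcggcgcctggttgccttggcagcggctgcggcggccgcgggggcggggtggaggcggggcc
STIM1: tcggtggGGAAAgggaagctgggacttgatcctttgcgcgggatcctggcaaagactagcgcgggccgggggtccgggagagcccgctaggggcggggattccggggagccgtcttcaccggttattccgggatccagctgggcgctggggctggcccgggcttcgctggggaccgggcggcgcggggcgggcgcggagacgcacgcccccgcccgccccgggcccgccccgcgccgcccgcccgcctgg
STIM2: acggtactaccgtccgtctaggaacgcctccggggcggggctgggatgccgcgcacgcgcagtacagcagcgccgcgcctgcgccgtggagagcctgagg
NFATC2: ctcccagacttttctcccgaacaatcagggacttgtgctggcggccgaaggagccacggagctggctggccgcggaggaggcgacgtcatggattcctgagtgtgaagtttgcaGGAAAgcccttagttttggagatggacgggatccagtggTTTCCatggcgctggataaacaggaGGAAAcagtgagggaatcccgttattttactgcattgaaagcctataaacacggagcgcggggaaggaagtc

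The GC content was 82.2% in the ORAI2 stretch, 77.2% in STIM1 and 73.0% in STIM2, whereas it was 54.8% in NFATC2. STIM2 thus has a GC-rich start although its transcript is poor in GC. The NFATC2 stretch held 3 NFAT cores and the STIM1 stretch 1, and the ORAI2 and STIM2 stretches held none. The stretches of NFATC2 and STIM1 come from 1 of several starts: the second NFATC2 window held 0 cores at a GC content of 80.7%, and the 4 STIM1 windows held 0 or 1 core at 55.7% to 80.0%. Over the 12 windows, 5 held a core, against 61.2% of the 35116 windows of all genes. The heat shock element, searched on both strands as 3 alternating GAA and TTC blocks with any 2 bases between them, was in 0 of the 12 windows and in 0.5% of all windows. These matches describe letters only.

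The 9 g libraries used held between 22634465 and 41893490 counts in total, and those of the second experiment between 24417717 and 41220541. Library 75 held 17205655 counts and listed ORAI2, STIM2 and ITPR3 at 0, while ORAI1 had 1933 counts there. In the 79 libraries, ORAI3 was the most sparsely counted gene, with 55 to 136 counts a library, and STIM1 the most richly counted, with 4337 to 10472. No pair of libraries of a group agreed within sampling noise. The pair farthest apart was 44 and 48 of hypg60, and within hypg5 it was 25 and 29. Other libraries, such as 80 of hypg15, also stood apart from their groups. The groups hypg3 and hypg15 carry library numbers 69 to 80 and the other 9 g groups 1 to 48, so these 2 times and that range of numbers cannot be told apart. All 12 T cell markers examined were at 1 CPM or more. They summed to 5156 to 5297 CPM in A-Ctrl, 3163 to 3394 CPM in the 3 groups after 300 g, and 4702 to 5167 CPM in heat. Of 4 B cell markers, CD79A alone reached this level. Its list summed to 43.5 to 72.4 CPM at 9 g, 60.8 to 62.2 in A-Ctrl, 28.2 to 33.0 in the 3 groups after 300 g and 52.9 to 61.3 in heat, and the part of these marker changes in the results below was not tested. None of 4 myeloid and none of 2 erythroid markers reached 1 CPM, and their sums stayed at or under 0.772 and 0.0645 CPM.

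At rest, STIM1 and ORAI1 were the most abundant of the 10 transcripts per exon length. In Ctrl, the level in RPKM (CPM divided by the exon length in kilobases) was 33.6 ± 1.57 (SD, n = 6) for STIM1 and 31.5 ± 1.53 for ORAI1. ORAI2 followed at 13.2 ± 0.594, NFATC3 at 13.1 ± 0.451, ITPR3 at 11.0 ± 0.214 and NFATC2 at 6.31 ± 0.166. ITPR2 stood at 3.22 ± 0.798, STIM2 at 2.68 ± 0.125, ITPR1 at 1.66 ± 0.0327 and ORAI3 at 0.871 ± 0.0531. In this order STIM1 and ORAI1, ORAI2 and NFATC3, and ITPR2 and STIM2 were neighbours whose SD ranges overlapped. Every member was thus detected, with the sensor STIM1 far above STIM2, ITPR3 far above the other IP3 receptors and ORAI3 the lowest channel. The order depends on the length used: with the longest annotated transcript in place of all exons, ITPR1 stood at 5.23 ± 0.103, above STIM2 at 4.31 ± 0.201 and ITPR2 at 3.93 ± 0.973. The spread between replicates was widest for ITPR2, whose level in the 6 Ctrl libraries ran from 32.4 to 57.7 CPM with a median of 42.9.

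After centrifugation at 300 g, the levels of ORAI1, ORAI2 and STIM1 fell to between 0.511 and 0.613 of the control, STIM2 rose 1.52-fold to 1.60-fold, and ITPR2 rose 3.94-fold to 4.10-fold, with near-equal values at all 3 waiting times. The share of counts on mitochondrial genes was 2.03% to 2.12% in A-Ctrl, 2.23% to 2.48% in the 3 groups after 300 g and 2.33% to 2.47% in heat, and its part in the results was not tested. In bulk RNA, fewer cells and less RNA per cell cannot be told apart. The question of this arm is whether routine centrifugation alters the transcriptome and for how long. Calls are adjusted p-values under 0.05 of edgeR's quasi-likelihood test over all genes. In wait1min, 3 of the 10 genes were upregulated and 5 downregulated, against 41.4% and 40.1% of the 17155 genes tested. The counts were 4 up and 6 down in wait4min, where 41.7% of all genes were up and 40.6% down, and 4 up and 5 down in wait15min, where the shares were 41.8% and 40.5%. Because most genes of the transcriptome were called, these counts are near the background and are not a result about the 10 genes. Their median log2 fold change was -0.22, -0.22 and -0.19 in the 3 comparisons, whereas that of all genes was 0.01 in each.

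**Figure D1:**
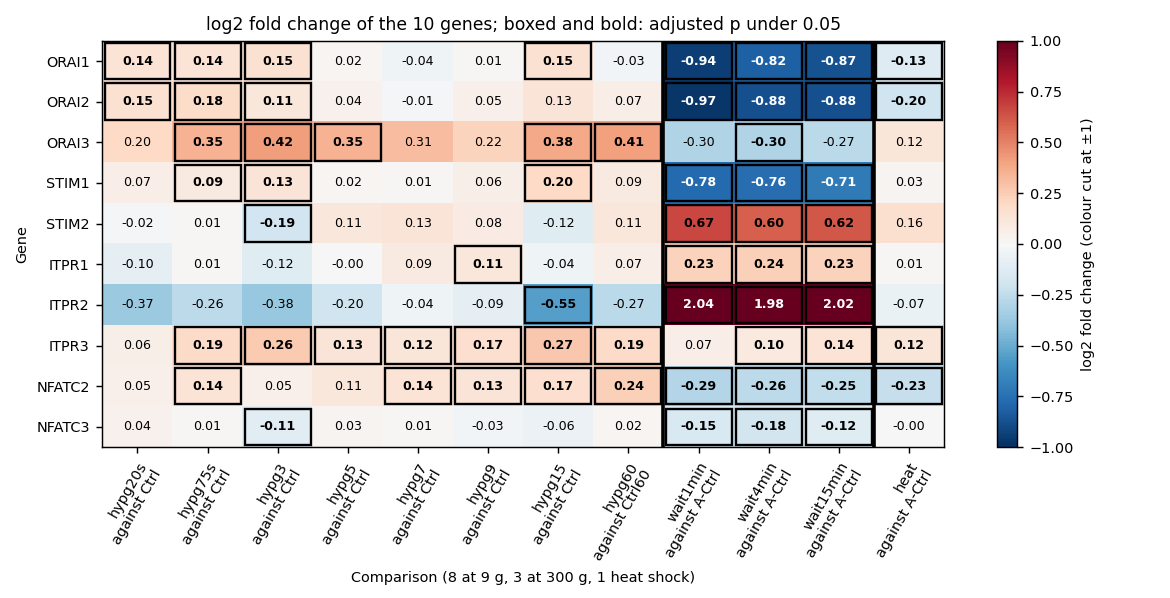
log2 fold change (colour, cut at ±1, and printed value) of the 10 genes (rows) in 8 comparisons at 9 g, 3 at 300 g and 1 of heat shock (columns), with boxes around adjusted p-values under 0.05. The largest values are those of ITPR2 at 300 g, from 1.98 to 2.04, and the 9 g columns lie between -0.55 and 0.42.

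Both abundant channel genes fell by about equal amounts. ORAI1 stood at 81.5, 87.2, 89.1 and 86.9 CPM in the 4 A-Ctrl libraries and at 45.1, 45.7, 45.9 and 44.7 CPM in wait1min. No centrifuged library reached the lowest control library. The log2 fold change of ORAI1 was -0.94 ± 0.04 (SE, edgeR adjusted p = 6.4e-13), with -0.82 ± 0.04 in wait4min and -0.87 ± 0.04 in wait15min. ORAI2 stood at 183, 196, 197 and 204 CPM in A-Ctrl and at 102, 99.4, 96.4 and 103 CPM in wait1min. Again the groups were far apart, and the log2 fold change was -0.97 ± 0.04 (edgeR adjusted p = 4.6e-13), followed by -0.88 ± 0.04 and -0.88 ± 0.04. ORAI3, at 2.50 to 3.23 CPM in A-Ctrl and 2.07 to 2.97 CPM in wait1min, overlapped between the groups. Its log2 fold change of -0.30 ± 0.14 did not pass (adjusted p = 0.05), nor did that of -0.27 ± 0.12 in wait15min (adjusted p = 0.053). These were called when 1 library was left out, in wait1min without 49 (adjusted p = 0.025) or 53 (0.018) and in wait15min without 49 (0.02) or 64 (0.034). The value of -0.30 ± 0.13 in wait4min passed (adjusted p = 0.038), but it was no longer called when any of 6 of the 8 libraries was left out, 50, 51 and 52 of A-Ctrl and 57, 58 and 59 of wait4min, with adjusted p-values of 0.059 to 0.12.

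The STIM genes moved apart. STIM1 stood at 278, 283, 274 and 277 CPM in A-Ctrl and at 167, 161, 162 and 163 CPM in wait1min, so that the groups did not overlap. Its log2 fold change was -0.78 ± 0.03 (edgeR adjusted p = 3.5e-13), then -0.76 ± 0.03 and -0.71 ± 0.03. STIM2 stood at 32.2, 28.6, 30.2 and 25.3 CPM in A-Ctrl and at 48.5, 46.0, 47.1 and 45.3 CPM in wait1min. All 12 centrifuged libraries lay above the highest control library, the lowest of them at 42.3 CPM. The log2 fold change of STIM2 was 0.67 ± 0.06 (edgeR adjusted p = 6e-09), then 0.60 ± 0.05 and 0.62 ± 0.06.

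Among the IP3 receptors, ITPR2 rose most. It stood at 49.7, 49.3, 45.5 and 46.6 CPM in A-Ctrl and at 197, 196, 198 and 197 CPM in wait1min, 193, 187, 179 and 194 CPM in wait4min, and 191, 192, 196 and 194 CPM in wait15min. The 12 centrifuged libraries were nearly alike, and no group overlapped the control. The log2 fold change was 2.04 ± 0.04 (edgeR adjusted p = 1.8e-16), 1.98 ± 0.04 and 2.02 ± 0.04, that is 4.10-fold, 3.94-fold and 4.05-fold. ITPR1, the receptor best known from neurons, stood at 75.3 to 80.3 CPM in A-Ctrl and at 87.4 to 95.1 CPM in wait1min without overlap, with log2 fold changes of 0.23 ± 0.04, 0.24 ± 0.03 and 0.23 ± 0.04 (adjusted p = 1.8e-05, 1.4e-06 and 7.2e-06). ITPR3, the most abundant receptor in these cells, gave the smallest values: 0.07 ± 0.04 in wait1min (not called, adjusted p = 0.11), 0.10 ± 0.03 in wait4min (adjusted p = 0.0083) and 0.14 ± 0.04 in wait15min (adjusted p = 0.0014).

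Both NFAT genes fell slightly with TMM scaling. NFATC2 stood at 76.9, 79.4, 79.9 and 79.0 CPM in A-Ctrl and at 66.9, 64.4, 63.0 and 65.1 CPM in wait1min, with log2 fold changes of -0.29 ± 0.04, -0.26 ± 0.03 and -0.25 ± 0.04 (edgeR adjusted p = 1.5e-06, 2e-07 and 2.6e-06). NFATC3 stood at 154, 151, 155 and 147 CPM in A-Ctrl and at 138, 142, 133 and 137 CPM in wait1min. Neither gene overlapped between control and centrifuged libraries. The log2 fold changes of NFATC3 were -0.15 ± 0.04, -0.18 ± 0.03 and -0.12 ± 0.03 (adjusted p = 0.00085, 6.6e-06 and 0.001).

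**Figure D2:**
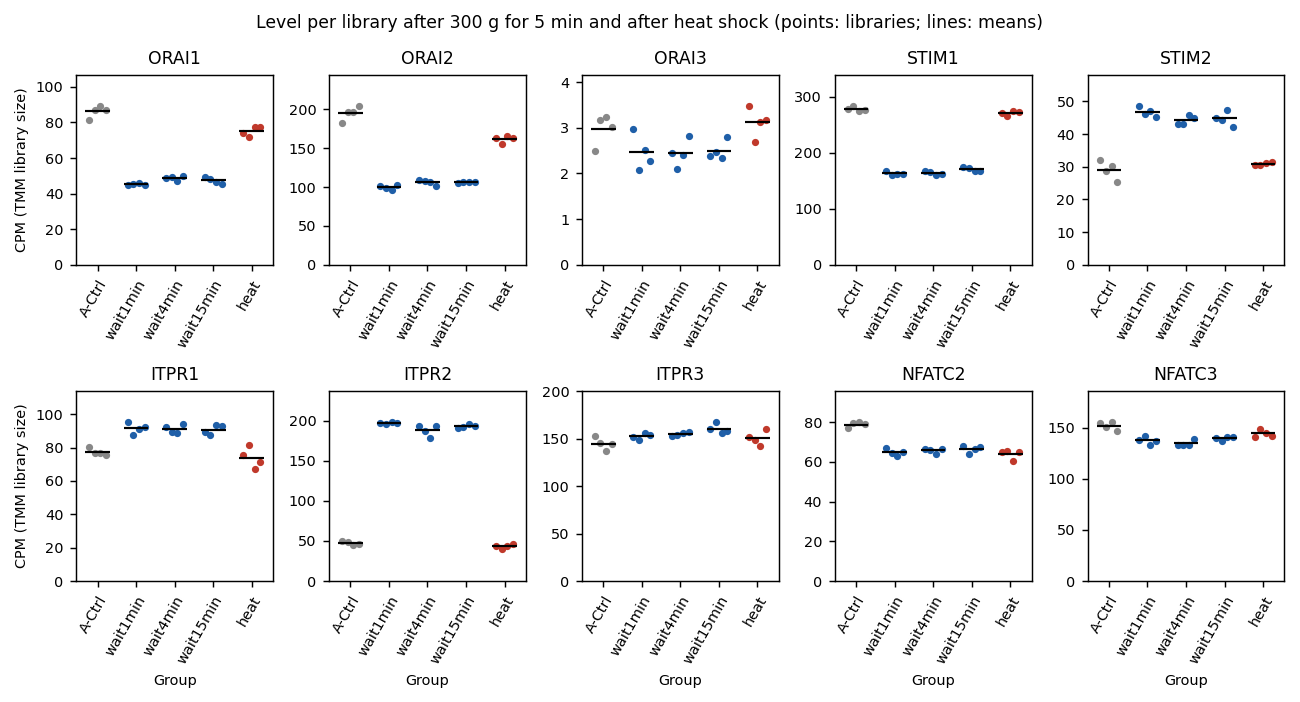
Level of each gene in CPM (y axis, from 0) in the 4 libraries (points) of A-Ctrl, wait1min, wait4min, wait15min and heat, with the group mean as a line. ITPR2 stands at 45.5 to 49.7 CPM in A-Ctrl and at 179 to 198 CPM after 300 g, and STIM1 and STIM2 move in opposite directions.

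The size of several of these changes depended on how libraries were made comparable. With library totals in place of TMM factors, the median log2 fold change of all genes moved from 0.01 to 0.25, 0.27 and 0.27. Of the 30 values of the 10 genes, 15 were then up and 9 down, against 11 up and 16 down with TMM, and of all genes in wait1min 8527 were up and 5218 down, against 7104 and 6882. Under this scaling NFATC3 turned to 0.09, 0.08 and 0.14, and NFATC2 was no longer called. When the trend of counts with GC content was removed within each library, 26 of 27 calls kept their direction. The log2 fold change of ITPR2 became 1.23, 1.21 and 1.24, that of STIM2 0.18, 0.13 and 0.14, that of ORAI1 -0.45, -0.38 and -0.41, that of ORAI2 -0.57, -0.50 and -0.51, and that of STIM1 -0.41, -0.42 and -0.37. ITPR3 moved the other way, to 0.52, 0.51 and 0.56, and NFATC3 was lower still, at -0.40, -0.41 and -0.35. When the trend with exon length was removed, which moved the median of all genes to -0.32, -0.31 and -0.32, STIM2 was no longer called, ITPR1 turned to -1.09, -1.09 and -1.10, and ITPR3 to -0.61, -0.57 and -0.53, while NFATC2 gave -0.86, -0.83 and -0.82 and NFATC3 -0.76, -0.78 and -0.73. ORAI1, ORAI2 and STIM1 were called lower, and ITPR2 was called higher, in all 3 comparisons under each of these settings, with no filter on low counts, with RLE factors, with all groups in a single model and by DESeq2.

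Between 15 and 1 min after the stop, no gene of the 10 was called, whereas 0.149% of the 17446 genes tested were called in either direction. At an unadjusted p under 0.05, 3 of the 10 differed by edgeR, as did 2192 of the 17446 genes, and DESeq2 called 0 of the 10. The largest of these differences were 0.09 ± 0.03 for ORAI2 (adjusted p = 0.29), 0.08 ± 0.03 for ITPR3 (adjusted p = 0.32) and 0.07 ± 0.03 for STIM1 (adjusted p = 0.34), all higher at 15 min. For ITPR2 the difference was -0.02, with a 95% interval of -0.08 to 0.04, and for STIM2 it was -0.05, with an interval of -0.14 to 0.03.

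The ratio of related genes within a library needs no scaling between libraries, although a library's trend with GC content still enters it. The log2 ratio of STIM2 to STIM1, per exon length, was -3.47 ± 0.15 (SD, n = 4) in A-Ctrl and -2.01 ± 0.03 in wait1min, a difference of 1.46. The ratio of ITPR2 to ITPR3 moved by 1.97, from -2.09 ± 0.03 to -0.13 ± 0.03, with nearly equal levels of both per exon length after 300 g. With the GC correction the log2 fold changes in wait1min lay closer together, at 1.23 for ITPR2 and 0.52 for ITPR3, and at 0.18 for STIM2 and -0.41 for STIM1. The ratio of ORAI2 to ORAI1 was -1.12 ± 0.04 in A-Ctrl and -1.15 ± 0.06 in wait1min, a difference of -0.03 with overlapping libraries. The ratio of NFATC3 to NFATC2 moved by 0.14, from 0.86 ± 0.04 to 1.00 ± 0.04. By a two-sided exact permutation test over libraries, 4 against 4 cannot go below p = 0.0286, and the differences for STIM2 to STIM1, ITPR2 to ITPR3 and NFATC3 to NFATC2 reached it in all 3 comparisons. Over the 48 ratios tested in this family the smallest Benjamini-Hochberg adjusted p of these exact tests was 0.0653, so none passed.

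**Figure D3:**
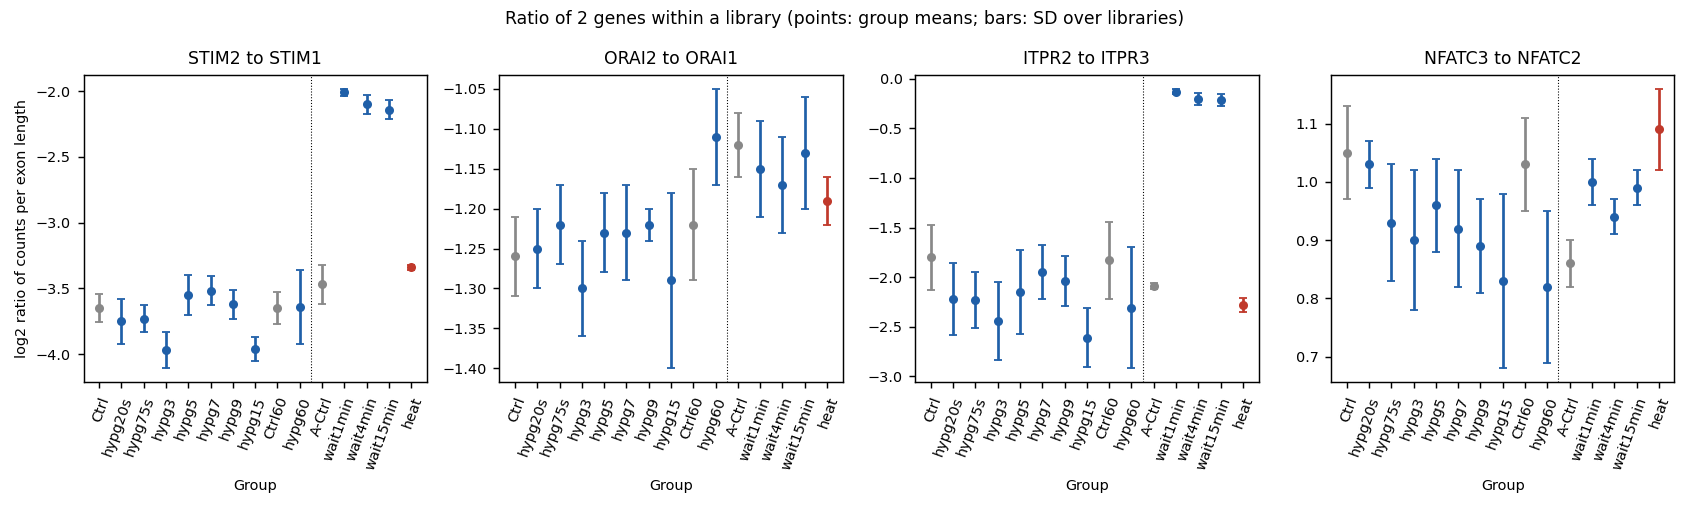
log2 ratio of 2 related genes within a library (y axis), each as counts per exon length, in the 15 groups (x axis), as mean (point) and SD (bar) over 4 to 6 libraries. STIM2 to STIM1 rises from -3.47 in A-Ctrl to -2.01 in wait1min and ITPR2 to ITPR3 from -2.09 to -0.13, whereas ORAI2 to ORAI1 stays between -1.30 and -1.11 in all groups.

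With heat shock, added as another type of stress, ORAI1, ORAI2 and NFATC2 were lower and ITPR3 was higher, all by small amounts. Of the 10 genes 1 was up and 3 down, against 10.6% up and 10.2% down among the 16655 genes tested. Of all genes 1770 were up and 1691 down, but 1537 and 3513 with the GC correction and 1461 and 4027 in a single model. ORAI1 stood at 81.5, 87.2, 89.1 and 86.9 CPM in A-Ctrl and at 73.9, 71.9, 77.2 and 77.6 CPM in heat. ORAI2 stood at 183 to 204 CPM in A-Ctrl and at 155 to 166 CPM in heat, and NFATC2 at 76.9 to 79.9 CPM against 60.4 to 65.5 CPM. For these 3 genes the groups did not overlap, also with TMM factors of these 8 libraries alone. The CPM values use factors of the whole experiment and the fold changes those of the groups compared. STIM1 had a mean of 271 CPM in heat and 278 in A-Ctrl, but a log2 fold change above 0. The log2 fold changes were -0.13 ± 0.04 for ORAI1 (edgeR adjusted p = 0.017), -0.20 ± 0.04 for ORAI2 (adjusted p = 0.00069) and -0.23 ± 0.04 for NFATC2 (adjusted p = 0.00058). ITPR3, whose libraries overlapped, gave 0.12 ± 0.04 (adjusted p = 0.037). It was not called with the GC correction (0.04, adjusted p = 0.5), nor when any of 6 of the 8 libraries was left out, and ORAI1 was not called without library 51 of A-Ctrl (-0.12, adjusted p = 0.063). STIM1 gave 0.03 (95% interval -0.02 to 0.09), ITPR2 -0.07 (-0.15 to 0.02) and NFATC3 0.00 (-0.07 to 0.06). STIM2 gave 0.16 ± 0.06 (adjusted p = 0.075) and was called up with library totals (0.19), the GC correction (0.14) and the exon length correction (0.18). In a single model of all groups, ITPR2 was called down (-0.13, adjusted p = 0.011) and ITPR3 was not called (0.06). Heat shock and 300 g share the A-Ctrl libraries, and side by side ITPR2 gave -0.07 and 2.04, STIM1 0.03 and -0.78, and NFATC2 -0.23 and -0.29.

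At 9 g log2 fold changes of the 10 genes were small. ITPR3, ORAI3 and NFATC2 were the genes most often called higher than at 1 g, in 7, 5 and 5 of the 8 comparisons, with log2 fold changes over all 8 of 0.06 to 0.27, 0.20 to 0.42 and 0.05 to 0.24. ITPR2 gave values from -0.04 to -0.55 and was called once. These comparisons ask whether a short rise in gravity changes gene expression. The 7 groups up to 15 min share the Ctrl libraries, so their values are not independent of each other. The share of counts on mitochondrial genes was 1.33% to 1.60% in Ctrl, 1.49% to 1.73% in hypg20s, 1.67% to 2.33% over hypg75s, hypg3, hypg5, hypg7 and hypg9, and 1.82% to 3.32% in hypg15. It was 1.16% to 1.38% in Ctrl60 against 2.12% to 2.67% in hypg60; its part in these results was not tested. Of the 10 genes, 2 were up and 0 down in hypg20s (6.66% and 8.58% of all genes tested), 6 and 0 in hypg75s (16.8% and 14.4%), 5 and 2 in hypg3 (16.9% and 24.4%), and 2 and 0 in hypg5 (4.33% and 1.69%). In hypg7, 2 were up and 0 down (6.64% and 6.19%), in hypg9 3 and 0 (11.3% and 8.34%), in hypg15 5 and 1 (25.4% and 27.9%) and in hypg60, against Ctrl60, 3 and 0 (17.1% and 13.0%). The median of the 10 genes lay between 0.03 and 0.14 and that of all genes between -0.02 and 0.02. Where 0 genes were called down, those with an unadjusted p under 0.05 in either direction numbered 3, 6, 3, 4, 4 and 3 in hypg20s, hypg75s, hypg5, hypg7, hypg9 and hypg60, and DESeq2 called 2, 5, 2, 2, 2 and 2. Of all genes tested, 5095 of 16137, 6734 of 16261 and 3676 of 16284 had such a p by edgeR in hypg20s, hypg75s and hypg5. In hypg7, hypg9 and hypg60 it was 4669 of 16438, 5435 of 16385 and 6787 of 16318. DESeq2 called 1229 up and 1890 down, 2408 and 2607, and 805 and 514 of all genes in the first 3 groups. In the other 3 it called 1079 and 1350, 1601 and 1707, and 2811 and 2507.

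Most of these calls were lost under some alternative settings, and why was not tested. Over the 8 comparisons 31 of 80 values were called, 28 up and 3 down. After removal of each library's trend with GC content, 7 of the 31 kept their call, and 2 of the 80 values were down and 9 up. The 7 were ORAI3 in hypg3 (0.26, adjusted p = 0.039), hypg5 (0.28, adjusted p = 0.028) and hypg60 (0.27, adjusted p = 0.024), ITPR3 in hypg3 (0.11, adjusted p = 0.02) and hypg9 (0.08, adjusted p = 0.048), NFATC2 in hypg7 (0.12, adjusted p = 0.034) and ITPR1 in hypg9 (0.09, adjusted p = 0.037). With 3 surrogate variables, which stand for variation not given by the groups, as covariates, none of the 31 calls remained and 1 value, ORAI2 in hypg15, was called, lower at -0.42 (adjusted p = 0.048). Under that setting 0 genes of the whole table were called in hypg75s and in hypg3, with 1036 and 1178 at an unadjusted p under 0.05 by edgeR, whereas DESeq2 without these covariates called 2408 up and 2607 down in hypg75s and 3090 up and 3599 down in hypg3. With the covariates, 1 gene of the table was up and 0 down in hypg5, 9 and 3 in hypg7, 0 and 52 in hypg9. The numbers were 44 and 13 in hypg15, 40 and 43 in hypg60, but 545 and 181 in hypg20s.

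**Figure D4:**
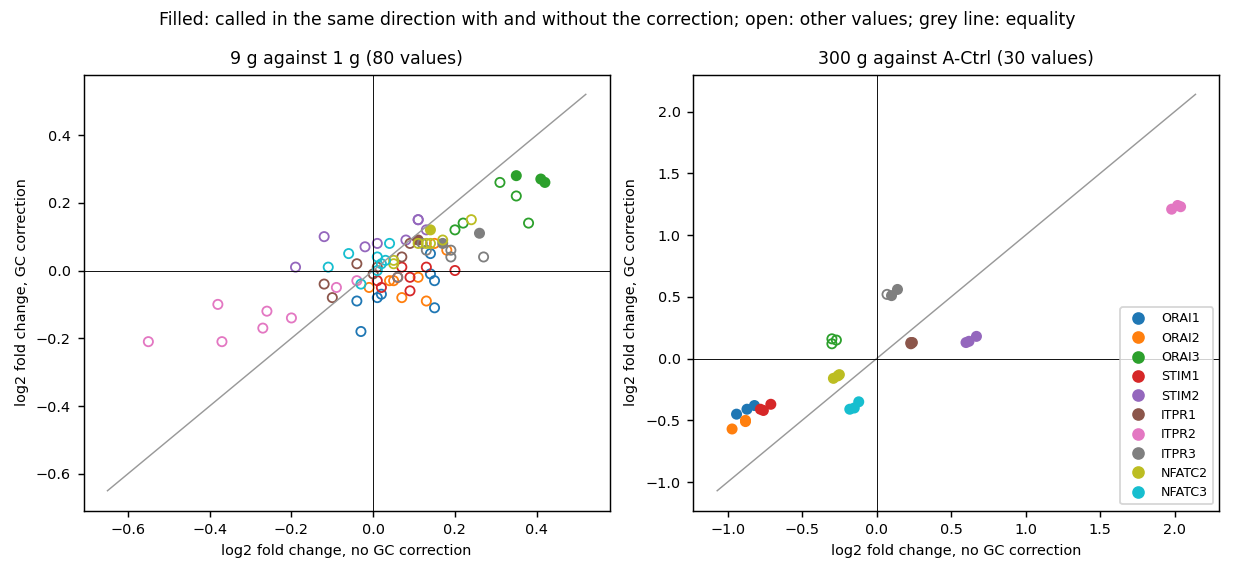
log2 fold change of the 10 genes without (x axis) and with (y axis) removal of the GC trend, for the 8 comparisons at 9 g (left, 80 values) and the 3 at 300 g (right, 30 values). Filled points are called in the same direction both ways: 7 at 9 g and 26 at 300 g, and most points lie nearer to 0 on the y axis than on the x axis.

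Of the channel genes, ORAI1 stood at 67.1 to 76.3 CPM in Ctrl (median 71.3), 76.0 to 81.9 in hypg20s (78.6), 74.3 to 82.8 in hypg75s (77.7), 75.0 to 88.0 in hypg3 (79.1) and 77.1 to 84.2 in hypg15 (77.9). In hypg5, hypg7, hypg9 and hypg60 its medians of 73.4, 70.6, 72.4 and 67.9 CPM were close to those of Ctrl and Ctrl60, 71.3 and 69.3. ORAI1 was thus called up in 4 comparisons, by 0.14 ± 0.04 in hypg20s, 0.14 ± 0.03 in hypg75s, 0.15 ± 0.04 in hypg3 and 0.15 ± 0.05 in hypg15 (edgeR adjusted p = 0.019, 0.0064, 0.008 and 0.01). After the GC correction these became 0.05, -0.01, -0.03 and -0.11, the last of them called down (adjusted p = 0.03), and ORAI1 was also called down in hypg60 (-0.18, adjusted p = 0.0039). ORAI2 was called up in hypg20s (0.15 ± 0.04), hypg75s (0.18 ± 0.03) and hypg3 (0.11 ± 0.04), and not after the GC correction (0.08, 0.06 and -0.02). In hypg75s its libraries, at 157 to 177 CPM, lay above all Ctrl libraries, at 138 to 155 CPM.

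ORAI3 was called up in 5 comparisons. It stood at 2.09 to 2.52 CPM in Ctrl (median 2.31), 2.65 to 3.23 in hypg75s (2.85), 2.65 to 3.58 in hypg3 (3.15), 2.72 to 3.14 in hypg5 (2.94) and 2.51 to 3.82 in hypg15 (2.65). In Ctrl60 it stood at 2.01 to 2.76 CPM (median 2.44) and in hypg60 at 2.98 to 3.52 (3.18). In hypg75s, hypg3, hypg5 and hypg60 no library overlapped the control, while in hypg15 1 did. The log2 fold change was 0.35 ± 0.07, 0.42 ± 0.09, 0.35 ± 0.08, 0.38 ± 0.13 and 0.41 ± 0.09 in hypg75s, hypg3, hypg5, hypg15 and hypg60 (edgeR adjusted p = 0.003, 0.0019, 0.017, 0.018 and 0.0042). In hypg15 the call rested on single libraries: the adjusted p was 0.054 without library 77 and 0.067 without library 80. With the GC correction all 8 values of ORAI3 stayed above 0, from 0.12 to 0.28. With 3 surrogate variables they ranged from -0.54 to 0.72. The gene is counted with at most 136 reads a library.

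STIM1 was called up in hypg75s (0.09 ± 0.03), hypg3 (0.13 ± 0.04) and hypg15 (0.20 ± 0.05), with edgeR adjusted p = 0.045, 0.013 and 0.002. In hypg15 it stood at 267 to 295 CPM (median 274), above all Ctrl libraries at 224 to 253 CPM (median 240.0). The 3 values after that correction were -0.02, 0.01 and 0.00, and none was called. STIM2 was lower in hypg3, at 18.8 to 21.5 CPM (median 19.6) against 20.6 to 23.1 in Ctrl (median 22.5), by -0.19 ± 0.05 (adjusted p = 0.011). It gave -0.12 ± 0.06 in hypg15 (adjusted p = 0.092), and 0.11 ± 0.05, 0.13 ± 0.05 and 0.08 ± 0.05 in hypg5, hypg7 and hypg9 (adjusted p = 0.23, 0.072 and 0.23). With the GC correction STIM2 in hypg3 gave 0.01, and all 8 values lay between 0.01 and 0.15, called up in hypg7 (0.12, adjusted p = 0.042) and hypg60 (0.15, adjusted p = 0.024).

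Among the receptors, ITPR3 was called up in 7 of the 8 comparisons. It stood at 106 to 112 CPM in Ctrl (median 108) and at 119 to 128 in hypg75s (120.0), 120.0 to 138 in hypg3 (133), 112 to 124 in hypg5 (119), 112 to 124 in hypg7 (118), 117 to 131 in hypg9 (118) and 125 to 137 in hypg15 (132). In these 6 groups no library overlapped Ctrl (hypg5 and hypg7 before rounding). The log2 fold changes were 0.19 ± 0.03, 0.26 ± 0.03, 0.13 ± 0.04, 0.12 ± 0.03, 0.17 ± 0.03 and 0.27 ± 0.04, with edgeR adjusted p-values from 4.3e-05 to 0.038. In hypg60 the value was 0.19 ± 0.07 (adjusted p = 0.046), with overlap, and in hypg20s it was 0.06 ± 0.04 (adjusted p = 0.28). With the GC correction ITPR3 lay between -0.02 and 0.11 and kept its call in hypg3 and hypg9. Without libraries 25 and 29 of hypg5, the pair farthest apart in that group, ORAI3 was the only one of the 10 genes called there.

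ITPR2 gave log2 fold changes from -0.04 ± 0.15 in hypg7 to -0.55 ± 0.16 in hypg15, where alone it was called (edgeR adjusted p = 0.01). Its libraries overlapped Ctrl in all groups, as in hypg15 at 23.3 to 40.6 CPM (median 29.0) against 32.4 to 57.7 (median 42.9). After the GC correction the value in hypg15 was -0.21 and not called. In hypg60 library 44 stood at 62.3 CPM and the other 5 at 26.3 to 36.8 CPM; without it ITPR2 gave -0.51 and was called. ITPR1 was called in hypg9 alone, at 53.9 to 61.0 CPM (median 58.1) against 51.4 to 54.5 in Ctrl (median 53.5), with 0.11 ± 0.04 (adjusted p = 0.047).

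NFATC2 was called up in 5 comparisons. It stood at 51.0 to 54.4 CPM in Ctrl (median 51.8), 53.1 to 61.0 in hypg75s (56.9), 53.7 to 60.8 in hypg7 (57.8), 54.5 to 60.4 in hypg9 (56.5) and 52.8 to 65.3 in hypg15 (60.9), and at 47.9 to 54.8 CPM in Ctrl60 (52.9) against 53.5 to 69.2 in hypg60 (61.4). The log2 fold changes were 0.14 ± 0.04, 0.14 ± 0.04, 0.13 ± 0.04, 0.17 ± 0.06 and 0.24 ± 0.07, with edgeR adjusted p-values from 0.016 to 0.027. In hypg15 the call was lost without library 77 (0.12, adjusted p = 0.078) or library 79 (0.15, adjusted p = 0.068). All 8 values of NFATC2 with the GC correction were above 0, from 0.02 to 0.15, and the call in hypg7 remained. NFATC3 differed in hypg3 only, at 105 to 111 CPM against 112 to 122 in Ctrl, with -0.11 ± 0.03 (adjusted p = 0.0097), and gave 0.01 with the GC correction.

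**Figure D5:**
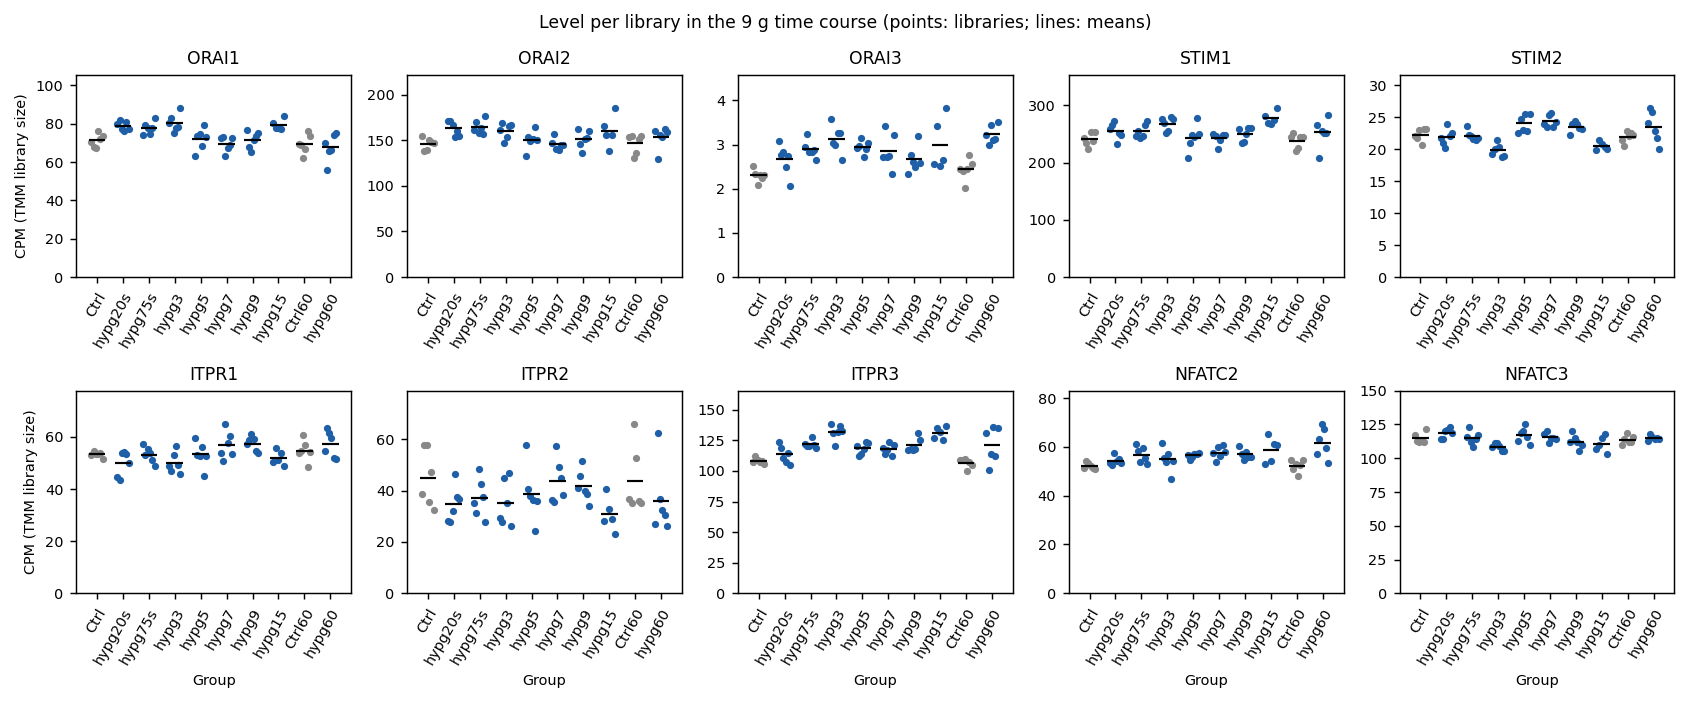
Level of each gene in CPM (y axis, from 0) in the libraries (points) of the 10 groups of the 9 g experiment (x axis), with the group mean as a line; Ctrl and Ctrl60 are the 1 g controls in grey. ITPR3 lies at 106 to 112 CPM in Ctrl and at 125 to 137 CPM in hypg15, and ITPR2 spreads widely within every group.

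Direct comparisons of groups gave no call among the 10 genes. Between the controls Ctrl60 and Ctrl, 0.0124% of all genes were called; no member had an unadjusted p under 0.05 by edgeR, DESeq2 called 0, and the values lay between -0.04 and 0.08. Between hypg15 and hypg3, 2.54% of all genes were called and again no member reached an unadjusted p under 0.05, nor did DESeq2 call any. The largest difference was -0.20 ± 0.17 for ITPR2, with a 95% interval of -0.52 to 0.13. The change after 60 min, taken against Ctrl60, was set against that after 9 min, taken against Ctrl, and 2.04% of all genes differed. None of the 10 did, at an adjusted or unadjusted p under 0.05 by edgeR or by the adjusted p of DESeq2. ORAI3 gave 0.21 ± 0.12 (interval -0.02 to 0.44) and NFATC2 0.13 ± 0.08 (interval -0.02 to 0.28). A gene called at 1 time and not at another is therefore not shown to differ between these times.

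Other genes of the pathway were taken from 9 lists of 74 genes, of which 56 or 57 were tested. At 300 g, 19 were up and 28 down in wait1min, 18 and 27 in wait4min, and 17 and 27 in wait15min. Of all genes, 41.4% were up and 40.1% down in wait1min, so these counts are not a result about the lists. In wait1min 14 were up and 35 down with the GC correction, where 5275 and 7588 of all 17155 genes were. Of the 7 ER store genes 4 were tested, and all 4 were down at each waiting time, where 40.1% to 40.6% of all genes were: CALR, the calcium-binding chaperone calreticulin, by values of -0.98, -0.95 and -0.97, HSPA5, the ER chaperone BiP, by -0.69, -0.68 and -0.71, the calcium pump gene ATP2A3 by -0.65, -0.57 and -0.57 and the pump gene ATP2A2 by -0.35, -0.33 and -0.34. Of the 3 plasma membrane calcium pump genes tested, 1 was called, ATP2B1, which rose by 2.59, 2.50 and 2.48, and ATP2B4 gave -0.07, -0.04 and -0.05 without a call. These 4 ER genes were also called down, and ATP2B1 up at 1.12, 1.10 and 1.08, with the GC correction.

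Among genes that make or remove IP3, 6 of 8 tested fell and 2 rose at each waiting time, with 40.1% of all genes down and 41.4% up in wait1min. The IP3 kinase genes ITPKB (-0.76, -0.74 and -0.70), ITPKC (-0.95, -0.95 and -0.86) and ITPKA (-0.87, -0.74 and -0.81) fell, and the phospholipase gene PLCB2 rose (0.38, 0.30 and 0.40). Of the regulators of store-operated entry 3 of 7 rose and 2 fell: SARAF, which turns the channel off, gave 0.44, 0.47 and 0.44, and ESYT1, a tether between ER and plasma membrane, gave -0.86, -0.82 and -0.80. TMCO1, an ER calcium leak channel, was up by 0.79, 0.65 and 0.67, but down by -0.81, -0.87 and -0.86 with the GC correction. Of the IP3 receptor regulators 3 of 9 rose and 4 fell in wait1min, with RNF170, a ubiquitin ligase for the receptors, up by 1.06, 0.98 and 0.98. In the calmodulin gene CALM2 the rise of 0.52, 0.44 and 0.40 turned to -1.15, -1.15 and -1.20 with the GC correction; calmodulin genes encode the same protein and may share reads.

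Downstream of calcium, 4 of 9 calcineurin genes tested rose and 5 fell in wait1min, where 41.4% of all genes rose and 40.1% fell; this and the next counts are near that background. The catalytic subunit gene PPP3CA rose by 1.09, 1.05 and 1.01, PPP3CB gave -0.13, -0.20 and -0.19, and the calcineurin inhibitor gene CABIN1 -0.60, -0.57 and -0.54. CABIN1 was up at 9 g in hypg75s, hypg3, hypg9, hypg15 and hypg60, by 0.13 to 0.27, and not called there with the GC correction. Of the 3 other NFAT family genes, 1 rose and 1 fell. NFAT5, the NFAT gene that responds to osmotic stress rather than calcineurin, rose by 2.10, 2.02 and 2.10, whereas NFATC1 fell by values of -0.69, -0.62 and -0.63. At 9 g NFATC1 was up in hypg75s (0.10), hypg3 (0.15) and hypg15 (0.28), and not called there with the GC correction (-0.04, -0.01 and 0.03). Of the NFAT kinases and scaffolds 4 of 8 rose and 4 fell, among them the export kinase gene GSK3B with 1.13, 1.11 and 1.12. DYRK2 rose by 0.90, 0.91 and 0.85, but gave -0.15, -0.10 and -0.16 with the GC correction. The same reversal was seen for DYRK1A (0.28, 0.28 and 0.31, then -0.52, -0.48 and -0.46) and CSNK1A1 (0.24, 0.26 and 0.25, then -1.04, -0.96 and -0.98). With library totals in place of TMM factors, 30 list genes were up and 20 down in wait1min, where 8527 and 5218 of all 17155 genes were.

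Target genes of NFAT were mostly silent. Of 15 listed, 5 or 6 were tested, and IFNG and CSF2 had 0 counts in all libraries used. In wait1min 1 of 5 rose and 2 fell, where 41.4% and 40.1% of all genes did, so this is not a result about the list. The genes called there had means down to 0.575 CPM. IL2, the cytokine gene most closely tied to NFAT, had a mean of 0.00105 CPM, IL3 of 0.000783 CPM and FASLG of 0.00205 CPM. CD40LG, the ligand of CD40, was lower at 9 g from hypg75s on, with values of -0.32, -0.34, -0.42, -0.35, -0.38, -0.45 and -0.60 in hypg75s, hypg3, hypg5, hypg7, hypg9, hypg15 and hypg60, and lower after heat, at -0.71 (edgeR adjusted p under the threshold in each). The GC correction left this call in hypg5, hypg7, hypg9, hypg60 and heat. At 300 g CD40LG gave -0.03, 0.07 and 0.01 without a call, and was lower with that correction, at -0.46, -0.34 and -0.39. EGR3, an immediate early gene, was lower in hypg75s at -1.13, and higher in wait4min (0.62), wait15min (0.64) and heat (1.25). Its mean over the libraries used was only 1.03 CPM, so these values rest on few counts. NR4A1, another early gene, fell at 300 g, at -0.50, -0.51 and -0.52, and gave -0.04, -0.08 and -0.09 without a call after the GC correction. It was up in hypg15 (0.36), where the GC correction gave 0.12 without a call.

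At 9 g, the list genes called up and down numbered 3 and 5 of 56 in hypg20s, 11 and 11 in hypg75s, 7 and 21 in hypg3, 2 and 3 in hypg5, 3 and 5 in hypg7, 6 and 5 in hypg9, 12 and 23 in hypg15, and 7 and 7 in hypg60. Of all genes, 6.66% were up and 8.58% down in hypg20s, 16.8% and 14.4% in hypg75s, 16.9% and 24.4% in hypg3, and 4.33% and 1.69% in hypg5. The shares were 6.64% and 6.19% in hypg7, 11.3% and 8.34% in hypg9, 25.4% and 27.9% in hypg15, and 17.1% and 13.0% in hypg60. The counts moved both ways with the setting: the GC correction gave 6 up and 5 down in hypg75s, 3 and 7 in hypg3, 6 and 10 in hypg9, 2 and 16 in hypg15, and 7 and 13 in hypg60. Of all genes it called 1644 and 2267, 1624 and 2450, 1798 and 3079, 2635 and 3413, and 2774 and 4155 in these groups. The exon length correction gave 15 and 14 in hypg3 (3752 and 2974 of all genes), and library totals gave 8 and 2 in hypg7 (1720 and 836 of all genes). ITPKB, which phosphorylates and so removes IP3, was up in all 8 comparisons, with 0.35, 0.43, 0.43, 0.25, 0.24, 0.21, 0.26 and 0.35 in order of time. It kept this call in 7 with the GC correction, the exception being hypg15 (0.04). With 3 surrogate variables 0 genes of the whole table were up in hypg75s, hypg3 and hypg9, so ITPKB was not called there. TMCO1 was down in all 8, from -0.21 in hypg7 to -0.82 in hypg15, and was still called in hypg15 (-0.26) and hypg60 (-0.28) after the GC correction. Of the 9 IP3 receptor regulators, 8 were down in hypg3 and 8 in hypg15 (24.4% and 27.9% of all genes), with list medians of -0.24 and -0.29. After the GC correction 3 and 5 were down and the medians were -0.09 and -0.14, and with the exon length correction 4 and 5 were down. Without correction 3, 4, 1, 1, 1 and 3 were down in hypg20s, hypg75s, hypg5, hypg7, hypg9 and hypg60. The groups hypg3 and hypg15 carry library numbers 69 to 80, so these times and that range of numbers cannot be told apart. HSPA5 was lower in hypg20s, hypg75s, hypg3, hypg7 and hypg9, by values of -0.15 to -0.29, with and without the GC correction. ATP2A2 was higher in hypg75s, hypg7, hypg9, hypg15 and hypg60, at 0.11 to 0.24, and all 5 of these calls remained with the GC correction. With 3 surrogate variables its calls in hypg75s and hypg9 were lost. The calls of TMCO1 and HSPA5 in hypg75s and hypg3 were lost as well, as 0 genes of the table were down there. After heat, 5 list genes of 57 were up and 10 down (10.6% and 10.2% of all genes), with ITPKB (-0.26), PPP3CA (-0.28) and NFATC1 (-0.21) among the 10. With the GC correction 4 were up and 23 down, where 1537 and 3513 of all 16655 genes were. With library totals 5 were up and 4 down, where 2252 and 1173 of all genes were.

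The 10 genes did not follow a shared course over the 59 libraries used of the 9 g experiment. These libraries share their controls and differ in depth and in their trend with GC content, so correlations of log2 levels are given as a description. ORAI1 varied with ORAI2 (Pearson r = 0.802) and STIM1 (r = 0.793) and against ITPR1 (r = -0.804), whereas STIM1 varied against ITPR2 (r = -0.842). Of the 13306 genes whose mean reached 1 CPM, those most like each member were MAP7D1 (r = 0.936) and EHD1 (0.924) for ORAI1, CASTOR2 (0.919) and RAPGEF1 (0.904) for ORAI2, and CIC (0.768) and ATN1 (0.756) for ORAI3. They were CSK (0.949) and GANAB (0.947) for STIM1, NUDT4 (0.794) and FOXN3 (0.788) for STIM2, FBXW2 (0.873) for ITPR1, HELLS (0.973) and DICER1 (0.97) for ITPR2, and NBEAL2 (0.958) and POLE (0.941) for ITPR3. For NFATC2 they were ATP2A2 (0.807) and RREB1 (0.802), and for NFATC3 TMED2 (0.726). ITPR2 thus had the closest neighbours and NFATC3 the most distant.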

How the data were processed

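The RNA of 80 Jurkat T cell samples was sequenced after rRNA depletion in directional libraries. The deposited table holds raw read counts per gene, made by the authors, with the summed exon length in bases as another deposited column. Per the labels, the submitters' processing notes list Trim Galore 0.6.5, STAR 2.7.3a, featureCounts 2.0.1 and DESeq2 1.28.1; the file header gives featureCounts 2.0.3, Ensembl 104 (GRCh38) and reverse-stranded counting (setting 2). The column headers name Ctrl60 by an addition of HEPES and name wait1min and wait4min "instant" and "1min", so the waiting times follow the sample titles. Library 75 (0 counts on several chromosomes) was left out, as was 1 gene record broken over 3 lines. There were 0 value columns without a sample.

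Each comparison was fitted on its groups alone with edgeR 4.0.16 (TMM factors, filterByExpr with a minimum count of 10, quasi-likelihood F test, Benjamini-Hochberg adjustment, threshold 0.05), and the SE is the log2 fold change divided by the root of F. CPM values use TMM factors of the whole experiment. ORAI3 had the fewest counts, 55 to 136 a library; its SE was the largest at 300 g, and that of ITPR2 was at 9 g. Related genes were compared within libraries by exact permutation tests, two-sided, with 0.5 added to each count. Alternatives were no filter, RLE factors, library totals, DESeq2 1.42.0, a lowess correction (span 0.3, prior count 2) for GC content or exon length, 3 surrogate variables (sva 3.50.0), a single model of all groups, library 75 kept, and leaving out each library in turn in the comparisons of hypg15, 300 g and heat; surrogate variables were fitted at 9 g alone; fits without libraries 25 and 29 of hypg5 and without library 44 of hypg60 were added after seeing the data. GC content came from the longest GENCODE 29 transcript and promoters from RefSeq (GRCh38.p14). The 10 genes and the 9 pathway lists were chosen with earlier results of these data known. All 10 genes are named. Of each list up to 4 genes were named, those called in most of the 12 comparisons, ties by the larger mean absolute log2 fold change, if their mean reached 1 CPM; the silent target genes were named after their values were seen. For each of the 10, the 2 genes of highest Pearson correlation of log2(CPM + 0.5) over 59 libraries were named, except 2 that are not reported here. Scripts were tested on simulated data.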

Additional observations from a re-analysis of the deposited data

Results flagged for a closer look

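In 6 of the 150 sets of libraries examined (10 genes in 15 groups), 1 library lay far from the rest of its group by Dixon's criterion, which chance meets in about 1 in 20 sets. In hypg60, library 44 was lowest for ORAI2, at 129 CPM against 154 to 162 in the others, and highest for ITPR2, at 62.3 CPM against 26.3 to 36.8. In hypg75s, library 22 was highest for ITPR3, at 128 CPM against 119 to 122. NFATC2 was lowest in library 59 of wait4min, at 64.0 CPM against 66.2 to 66.6, and in library 67 of heat, at 60.4 CPM against 65.1 to 65.5. NFATC3 was highest in library 60 of wait4min, at 139 CPM against 133 in the other libraries.

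STIM2 lay on opposite sides of the control at different times of 9 g, although of the 4 groups hypg3 alone passed the test. Every library of hypg3 and hypg15 lay below the mean of Ctrl, and every library of hypg5 and hypg7 lay above it. The mean log2 change of hypg3 differed from that of hypg5 by -0.27 and from that of hypg7 by -0.29, and that of hypg15 lay 0.22 below hypg5 and 0.24 below hypg7. These differences were not tested. The groups hypg3 and hypg15 carry library numbers 69 to 80, so time and that range of numbers cannot be told apart, and with the GC correction all 4 values of STIM2 were above 0.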

How the results depend on the processing

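Of the 31 calls at 9 g, 28 remained with DESeq2 and with RLE factors, 30 with library totals, 21 in a single model, 20 with the exon length correction, 17 without a filter, 7 with the GC correction and 0 with 3 surrogate variables; of the 27 calls at 300 g, between 19 and 27 remained under the same settings other than surrogate variables, which were not fitted there. With the GC correction the number of the 10 genes called was 0 in hypg20s (against 2), 0 in hypg75s (against 6), 2 in hypg3 (against 7), 1 in hypg5 (against 2) and 1 in hypg15 (against 6). Of all genes, this correction called 925 up and 681 down, 1644 and 2267, 1624 and 2450, 782 and 1273, and 2635 and 3413 in these groups. Without it the numbers were 1074 and 1384, 2738 and 2348, 2740 and 3945, 705 and 276, and 4040 and 4437. With 3 surrogate variables the number of the 10 called was 0 in hypg20s, hypg75s, hypg3, hypg5, hypg7, hypg9 and hypg60, 1 in hypg15, and 1 between hypg15 and hypg3 (against 0). Of all genes, 545 were then up and 181 down in hypg20s, and 306 and 573 between hypg15 and hypg3. In the other comparisons at most 44 were up and 52 down, so that hardly any call could remain there. A single model called 0 of the 10 in hypg20s, 3 in hypg75s and 1 in each of hypg5, hypg7 and hypg9. Of all genes it called 828 up and 499 down, 2102 and 1742, 996 and 391, 1160 and 889, and 1691 and 1035 in these groups. Without a filter the numbers of the 10 called were 4 in hypg3, 0 in hypg5 and hypg7, and 1 in hypg9. Of all genes, 1863 were then up and 3950 down in hypg3, 409 and 156 in hypg5, 770 and 767 in hypg7, and 1464 and 1289 in hypg9. The exon length correction called 1 of the 10 in hypg5 and 0 in hypg7 and hypg9, and library totals called 4 in hypg7. Of all genes, the length correction called 559 up and 355 down in hypg5, 702 and 1059 in hypg7, and 1375 and 1751 in hypg9. Library totals called 1720 and 836 of all genes in hypg7. Without libraries 25 and 29, hypg5 had 1 call among the 10, and without library 44, hypg60 had 5 (against 3). Leaving out 1 library at a time gave 4 to 7 calls in hypg15, 8 to 10 in wait1min, 9 to 10 in wait4min and wait15min, 2 to 5 in heat (2 without library 51 of A-Ctrl), and 0 between hypg15 and hypg3 and between wait15min and wait1min. The cause of these changes was not tested.

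Directions turned as follows. With the GC correction, ORAI1 gave -0.01 in hypg75s, -0.03 in hypg3 and -0.11 in hypg15, STIM1 -0.02 in hypg75s, ORAI2 -0.02 in hypg3, STIM2 and NFATC3 0.01 in hypg3, and ORAI3 0.12 in wait4min. With 3 surrogate variables, ORAI2 gave -0.05 in hypg75s, -0.01 in hypg3 and -0.42 in hypg15, and ORAI3 -0.17 in hypg3 and -0.54 in hypg15. STIM1 gave -0.04 in hypg3 and -0.03 in hypg15, STIM2 0.01 in hypg3, ITPR3 -0.02 in hypg3 and -0.21 in hypg60, ORAI1 -0.04 and ITPR2 0.07 in hypg15, and NFATC2 -0.04 in hypg7, -0.00 in hypg9, -0.04 in hypg15 and -0.03 in hypg60. With the exon length correction, NFATC3 gave 0.03 in hypg3, ITPR1 0.18 in hypg15 and -1.09, -1.09 and -1.10 in wait1min, wait4min and wait15min, and ITPR3 -0.61, -0.57 and -0.53 there. With library totals, NFATC3 gave 0.09, 0.08 and 0.14 in those groups, and NFATC2 0.01 in wait15min. No paired analysis was possible because each library carries a number of its own. The low counts of ORAI3 limit what can be shown for that gene.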
